A study of Mus musculus with 4 samples.

Results

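The motor neuron and cholinergic gene set held 7 genes, which the deposited table writes as CHAT, SLC5A7, SLC18A3, ACHE, ISL1, MNX1 and CHODL and which are given here by their mouse symbols (Chat, Slc5a7, Slc18a3, Ache, Isl1, Mnx1 and Chodl). They are a named set, put together with earlier results of these data known, and make up 7 of the 14718 genes listed at either time point. At 7 days post injury (dpi) 6 of them were among 14125 listed genes, with Mnx1 not listed. At 21 dpi 5 were among 11472 listed genes, with Slc5a7 and Ache not listed. Chat, Slc18a3, Isl1 and Chodl, 4 of the 7, were listed at both times, as were 10879 genes in all.

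RNA was sequenced from the lesion site of the spinal cord of adult male mice in which human APOE stands in place of the mouse Apoe gene (targeted replacement), so that every cell that makes apolipoprotein E makes the human ApoE3 or ApoE4 form throughout life. All animals had an incomplete contusion injury at 50 kdyne under isoflurane. The 4 groups were ApoE3 at 7 dpi, ApoE4 at 7 dpi, ApoE3 at 21 dpi and ApoE4 at 21 dpi, and no uninjured group was used here. The comparison asks which transcripts at the injured site differ between the ApoE forms early and late after the injury. The authors deposited 1 value per gene and group, in FPKM (fragments scaled to transcript length and to the mapped fragments of the library), so no difference given here has a replicate check, and the depth of reads per gene is not known.

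The deposited rows number ApoE4 as the first sample and ApoE3 as the second, but name the comparison as ApoE3 versus ApoE4. The first value column was read as ApoE3, following the name of the comparison and the way the study itself reads the ratio. Were the column numbers right instead, every difference between genotypes given here would change its sign, and each level and each difference over time given for 1 genotype would belong to the other.

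Cholinergic neurons make acetylcholine with choline acetyltransferase, the product of Chat, and load it into synaptic vesicles with the vesicular acetylcholine transporter, the product of Slc18a3. After release, acetylcholinesterase (Ache) splits the transmitter in the synaptic cleft, and the high-affinity choline transporter (Slc5a7) takes the choline back into the terminal. In the spinal cord, motor neurons are the best known cells that use this cycle, beside preganglionic autonomic neurons and a small class of interneurons. The homeodomain factors Isl1 and Mnx1 specify motor neurons during development, and chondrolectin (Chodl) is a membrane lectin-like protein found in fast motor neurons.

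The samples held neuronal RNA at both times. Of 12 pan-neuronal genes, 11 were listed at 7 dpi and 10 at 21 dpi, with none at 0. Their summed level was 10653 FPKM in ApoE3 and 8418 FPKM in ApoE4 at 7 dpi, where Map2, a dendritic microtubule protein, was the most abundant (4119 and 3184 FPKM). At 21 dpi the sum was 12879 FPKM in ApoE3 and 18637 FPKM in ApoE4, and Snap25, a vesicle fusion protein, was the most abundant (5336 and 7812 FPKM).

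Both 21 dpi groups also held transcripts known from sensory ganglia, Schwann cells and skeletal muscle, in different amounts. Markers of sensory ganglion neurons, 10 of 11 listed at 21 dpi, had a summed level of 151 FPKM in ApoE3 and 27.9 FPKM in ApoE4. The most abundant by the mean of both groups, the transcription factor gene Pou4f1, was at 32.1 and 18.8 FPKM. Avil, an actin-binding protein of sensory neurons, was at 39.1 FPKM in ApoE3 and 1.20 FPKM in ApoE4, and Scn10a, a sodium channel of nociceptors, was at 20.1 and 0.153 FPKM. Trpv1 and Mrgprd, both defining genes of nociceptor classes, were listed at 0 in ApoE4. Schwann cell genes, 5 of 6 listed, summed to 2212 FPKM in ApoE3 and 1105 FPKM in ApoE4, with 4 of the 5 higher in ApoE3. Pmp22 made up most of both sums (1969.95 and 992 FPKM), Cdh19 was at 28.7 and 30.2 FPKM and the tight junction gene Cldn19 was at 18.6 and 0.188 FPKM. Skeletal muscle genes went the other way. Of 10, 7 were listed, and they summed to 34.6 FPKM in ApoE3 and 699 FPKM in ApoE4. The most abundant was the fast troponin gene Tnnt3, at 22.5 FPKM in ApoE3 and 515 FPKM in ApoE4, the myosin light chain gene Myl1 was at 1.98 and 70.9 FPKM, and Myh4 was listed at 0 in ApoE3. At 7 dpi the Schwann cell genes, 4 of 6 listed, summed to 769 FPKM in ApoE3 and 767 FPKM in ApoE4, with Pmp22 the most abundant (693 and 671 FPKM). The largest differences were those of Egr2, a factor of myelinating cells (33.1 and 51.6 FPKM, -0.62 on the log2 scale of FPKM + 1), and Ncmap (10.2 and 7.59 FPKM, 0.38). At that time Pou4f1 was the 1 listed sensory ganglion gene, at 8.38 FPKM in ApoE3 and 6.64 FPKM in ApoE4. Where these transcripts came from, and their part in any difference between genotypes at 21 dpi, was not tested.

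Slc18a3 lies wholly inside the Chat gene on the same strand, an arrangement known as the cholinergic gene locus, and its RefSeq start is 1059 bases downstream of that of Chat. The library preparation does not mark the strand, and how reads from shared stretches were divided between both genes is not given in the sources used here, so the values of this pair are less certain than those of the other members. RefSeq (GRCm38.p6) has a 300-base promoter window, from 250 bases before to 50 bases after the gene start, for all 7 members. The windows are shown for the nested pair, for Chodl, whose values ran close to those of Slc18a3, and for Isl1, which went the other way at 21 dpi. They lie at chr14:32465860-32466159 on the minus strand for Chat, chr14:32464801-32465100 on the minus strand for Slc18a3, chr16:78930698-78930997 on the plus strand for Chodl and chr13:116309639-116309938 on the minus strand for Isl1. Each is written 5′ to 3′ on the strand of its gene, and capitals mark the E-box CAGCTG, the motif of basic helix-loop-helix factors.
Chat: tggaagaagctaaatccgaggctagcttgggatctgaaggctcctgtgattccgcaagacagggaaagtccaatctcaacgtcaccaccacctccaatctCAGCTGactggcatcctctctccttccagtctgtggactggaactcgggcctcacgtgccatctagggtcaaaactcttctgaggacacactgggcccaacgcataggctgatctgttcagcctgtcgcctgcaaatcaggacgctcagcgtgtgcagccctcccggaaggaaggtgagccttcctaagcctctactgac
Slc18a3: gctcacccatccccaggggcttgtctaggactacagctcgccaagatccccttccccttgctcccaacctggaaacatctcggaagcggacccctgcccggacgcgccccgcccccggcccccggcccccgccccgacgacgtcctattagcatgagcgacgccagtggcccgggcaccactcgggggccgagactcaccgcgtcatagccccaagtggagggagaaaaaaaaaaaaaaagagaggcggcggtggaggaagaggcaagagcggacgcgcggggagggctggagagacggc
Chodl: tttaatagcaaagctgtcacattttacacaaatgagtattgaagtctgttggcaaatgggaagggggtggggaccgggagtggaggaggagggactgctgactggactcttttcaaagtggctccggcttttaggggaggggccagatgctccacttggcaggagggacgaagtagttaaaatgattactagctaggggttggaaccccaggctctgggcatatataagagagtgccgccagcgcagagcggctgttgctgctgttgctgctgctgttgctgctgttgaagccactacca
Isl1: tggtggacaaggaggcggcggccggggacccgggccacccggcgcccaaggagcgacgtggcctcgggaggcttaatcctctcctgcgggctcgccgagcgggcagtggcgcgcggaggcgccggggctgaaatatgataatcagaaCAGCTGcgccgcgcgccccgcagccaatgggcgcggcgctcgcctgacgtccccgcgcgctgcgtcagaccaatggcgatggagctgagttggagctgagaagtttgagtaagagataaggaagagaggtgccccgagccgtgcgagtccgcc

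Of the 7 windows, 3 held CAGCTG, which reads the same on both strands. Counting the first base of the gene as 0, it began at -150 in Chat, at -103 in Isl1 and at 44 in Mnx1. Among all 32851 promoter windows of the same table, 16.3% held it. The homeodomain core TAATTA was in none of the 7 windows and in 5.29% of all windows, and TCAGCACC, the left part of the element bound by the repressor REST, was in none of the 7 and in 1.65% of all windows, with both strands searched. Base composition differed within the nested pair. The Slc18a3 window was 67.0% G or C with 27 CG pairs, and the Chat window 55.7% with 10, while the median over all windows was 52.7% with 7. Isl1 had 69.0% and 37 CG pairs, and Chodl 52.7% and 6. A match describes letters in a window and is not a measured binding site.

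Chat, the enzyme that defines a cholinergic neuron, was at 8.08 FPKM in ApoE3 and 5.45 FPKM in ApoE4 at 7 dpi. At 21 dpi it was at 8.16 FPKM in ApoE3 and 13.4 FPKM in ApoE4. The ApoE3 values of both times were almost equal, the lowest value was in ApoE4 at 7 dpi and the highest in ApoE4 at 21 dpi.

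Slc18a3, which fills the vesicles, was at 17.2 FPKM in ApoE3 and 13.7 FPKM in ApoE4 at 7 dpi, and at 28.3 and 54.4 FPKM at 21 dpi. It was above Chat in every group, by 2.13 times in ApoE3 at 7 dpi, 2.51 times in ApoE4 at 7 dpi, 3.47 times in ApoE3 at 21 dpi and 4.05 times in ApoE4 at 21 dpi, in FPKM, which is per length. The nested pair thus had the same order of groups for the lowest and the highest value, both in ApoE4, but not the same proportions.

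Slc5a7, the choline uptake step that limits transmitter synthesis, was at 45.1 FPKM in ApoE3 and 37.3 FPKM in ApoE4 at 7 dpi. Ache was the most abundant member, at 357 FPKM in ApoE3 and 309 FPKM in ApoE4 at 7 dpi. Neither has a value at 21 dpi. Not being listed cannot be read as a low level, since abundant genes are missing too. Of 3288 genes with a mean of at least 100 FPKM at 7 dpi, 1032 (31.4%) were not listed at 21 dpi, and of 7527 genes from 10 to 100 FPKM, 1488 (19.8%) were not. Of 176 genes under 1 FPKM, 81 (46.0%) were not. Ache is also made by skeletal muscle and by red cell precursors. At 7 dpi the listed muscle genes, 6 of 10, summed to 65.6 FPKM in ApoE3 and 42.7 FPKM in ApoE4, with Tnnt3 the most abundant (45.7 and 26.5 FPKM). Mylpf (7.59 and 3.53 FPKM, 0.92) and Myl1 (2.87 and 5.45 FPKM, -0.74) had the largest log2 differences of FPKM + 1 in each direction. The listed erythroid genes, 5 of 6, summed to 492 and 489 FPKM, with the globin gene Hbb-bs the most abundant (146 and 142 FPKM). None of these muscle and erythroid genes was at 0, and their part in the Ache values was not tested.

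Isl1 was the least abundant member at 7 dpi, at 1.03 FPKM in ApoE3 and 0.457 FPKM in ApoE4, and was at 3.15 FPKM in ApoE3 and 1.002 FPKM in ApoE4 at 21 dpi. It was higher in ApoE3 at both times. Mnx1 had values only at 21 dpi, 1.21 FPKM in ApoE3 and 2.32 FPKM in ApoE4, so the 2 developmental factors were on opposite sides there. Chodl, the marker of fast motor neurons, was at 20.3 FPKM in ApoE3 and 17.9 FPKM in ApoE4 at 7 dpi, and at 37.2 and 76.4 FPKM at 21 dpi. Like Slc18a3, it had its lowest value in ApoE4 at 7 dpi and its highest in ApoE4 at 21 dpi.

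At 7 dpi the order of levels from high to low was Ache, Slc5a7, Chodl, Slc18a3, Chat and Isl1 in both genotypes. At 21 dpi it was Chodl, Slc18a3 and Chat in both, followed by Isl1 and Mnx1 in ApoE3 and by Mnx1 and Isl1 in ApoE4. With 1 value per group, no spread says which neighbours in this order differ.

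**Figure D1:**
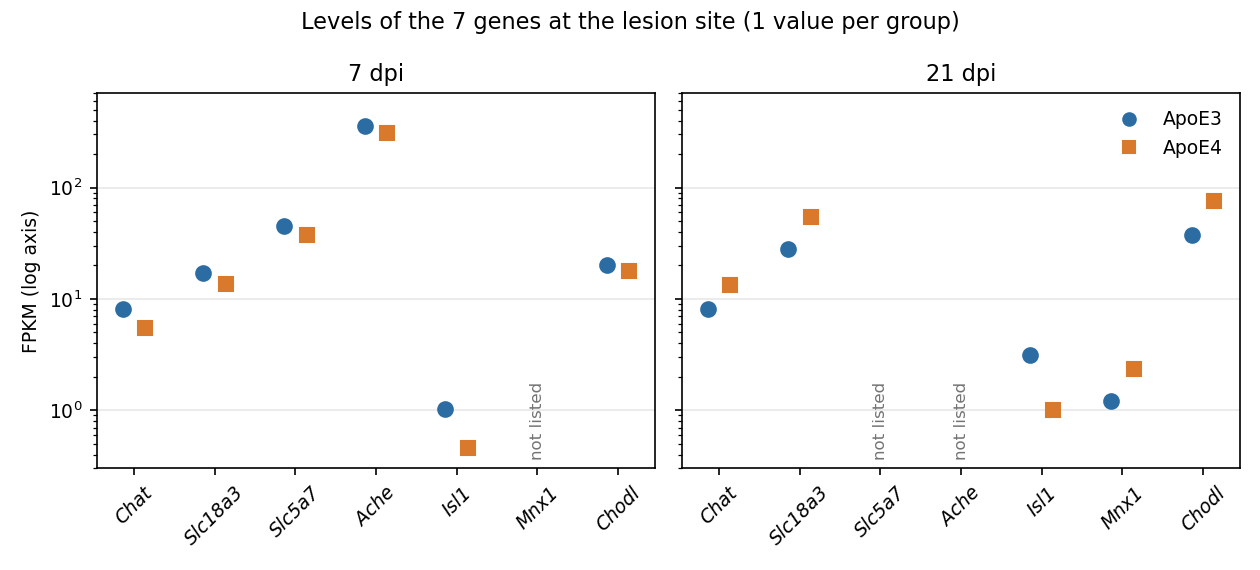
FPKM of each of the 7 genes on a log axis, with circles for ApoE3 and squares for ApoE4, at 7 dpi (left) and 21 dpi (right); each point is the 1 deposited value of a group. Every listed member was higher in ApoE3 at 7 dpi, from Isl1 (1.03 against 0.457) to Ache (357 against 309), where 50.4% of all listed genes were. At 21 dpi the ApoE4 value was higher for all listed members but Isl1, and for 93.8% of all listed genes.

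At 7 dpi the transmitter genes and the motor neuron genes were all somewhat higher in ApoE3, where 50.4% of all listed genes were. Differences are given as log2 of the ratio of FPKM + 1, ApoE3 over ApoE4, a scale that understates the differences of low genes. They were 0.49 for Chat, 0.31 for Slc18a3, 0.27 for Slc5a7, 0.21 for Ache, 0.48 for Isl1 and 0.17 for Chodl, with a median of 0.29. Chat (1.41-fold) and Isl1 (1.39-fold) were past a ratio of 1.3, so that 2 of 6 members were past it towards ApoE3 and 0 towards ApoE4. Over all 14125 listed genes, 3.78% were past 1.3-fold towards ApoE3 and 4.76% towards ApoE4, and the median difference of the 13949 genes with a mean of at least 1 FPKM was 0.0018. Isl1 has a mean under 1 FPKM at this time, and its plain FPKM ratio was 2.25.

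Other neuronal genes stood at a like distance from 0 at 7 dpi. All 11 listed pan-neuronal genes were higher in ApoE3, where 50.4% of all listed genes were. The median of the 11 was 0.26, and 1, Snap25, was past 1.3-fold (3366 and 2545 FPKM, 0.40). All 5 listed genes of other transmitter types were higher in ApoE3 too, with a median of 0.25. Of these 2 were past 1.3-fold, Slc6a5 (254 and 188 FPKM, 0.43) and Gad1 (273 and 207 FPKM, 0.40). The share of all listed genes past it towards ApoE3 was 3.78%. When the pan-neuronal median was subtracted, the median of members was 0.028, 0 members were past 1.3-fold, Chat was at 0.23, Isl1 at 0.22, and Ache and Chodl changed sign, to -0.05 and -0.09. In a piece of tissue, fewer cholinergic neurons and less RNA of these genes per neuron cannot be told apart.

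At 21 dpi Chat, Slc18a3 and Chodl were higher in ApoE4, the opposite of 7 dpi, as was Mnx1, which has no earlier value. Isl1 alone was higher in ApoE3. The whole table was shifted at this time. The median difference of the 11398 genes with a mean of at least 1 FPKM was -0.42, and 93.8% of listed genes had the higher value in ApoE4. The FPKM of all listed genes summed to 1513618 in ApoE3 and 2050296 in ApoE4, against 1668994 and 1669126 at 7 dpi. The differences of members were -0.65 for Chat, -0.92 for Slc18a3, -0.59 for Mnx1, -1.02 for Chodl and 1.05 for Isl1. By these, 4 of 5 members were past 1.3-fold towards ApoE4 and 1 towards ApoE3, where 58.9% of all listed genes were past it towards ApoE4 and 2.01% towards ApoE3.

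With that shift subtracted, each member kept its direction, at smaller distances for the genes higher in ApoE4. Chat was at -0.23, Slc18a3 at -0.49, Mnx1 at -0.17 and Chodl at -0.60, and Isl1 was at 1.48, a 2.78-fold difference. On this scale 2 of 5 members, Slc18a3 (1.41-fold) and Chodl (1.51-fold), were past 1.3-fold towards ApoE4, and Isl1 was past it towards ApoE3. The shares of all listed genes were 8.06% and 7.46%. Relative to the pan-neuronal median, which was -0.36 at 21 dpi, 2 members were again past 1.3-fold towards ApoE4, and Isl1 (1.41) was past it towards ApoE3. The share of all listed genes was not computed on this base, so these counts cannot be set against the whole table. Before any subtraction, 4 of 10 listed pan-neuronal genes were past it towards ApoE4, where 58.9% of all listed genes were. The largest difference was that of Map2 (2879 and 4989.9 FPKM, -0.79). Relative to all genes, 0 of the 10 were past 1.3-fold.

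**Figure D2:**
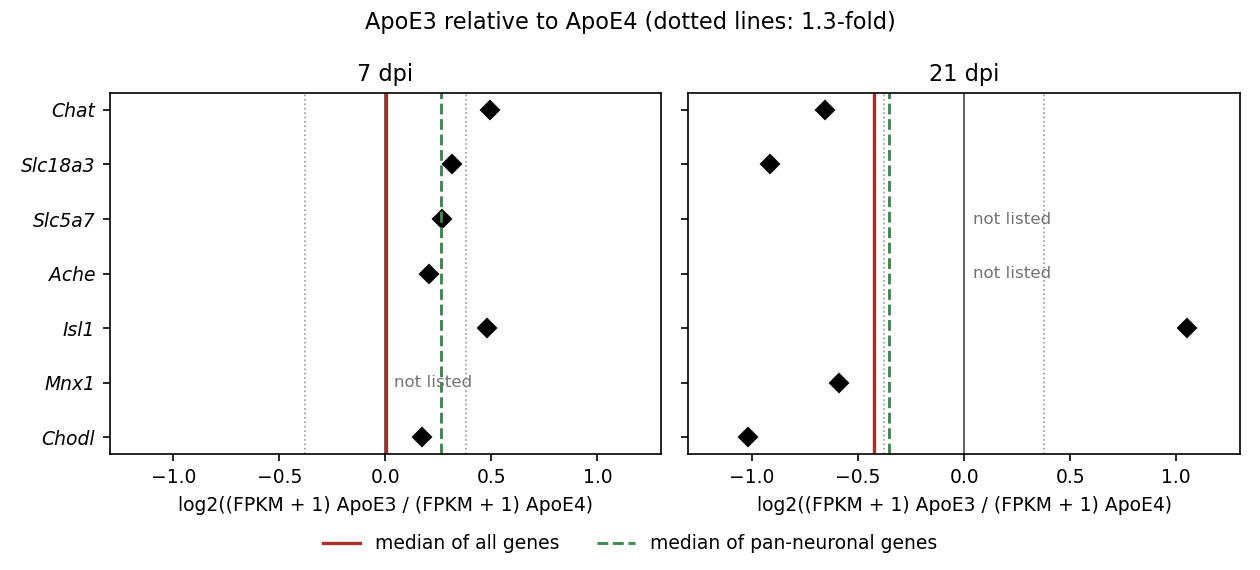
Difference between genotypes for each of the 7 genes, as log2 of the ratio of FPKM + 1, ApoE3 over ApoE4, at 7 dpi (left) and 21 dpi (right). The red line is the median of all genes (0.0018 at 7 dpi and -0.42 at 21 dpi), the dashed green line the median of the pan-neuronal genes (0.26 and -0.36), and the dotted lines a ratio of 1.3; at 21 dpi Chodl (-1.02) is the farthest to the left and Isl1 (1.05) alone lies to the right of 0.

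Isl1 is not particular to motor neurons: it is also a factor of sensory ganglion neurons. At 21 dpi all 10 listed sensory ganglion genes were past 1.3-fold towards ApoE3, where 2.01% of all listed genes were. This list was chosen with earlier results of these data known. Genes at 0 in ApoE4, such as Trpv1 and Mrgprd, may have been listed only through their ApoE3 values. The count is therefore a description and not support for a result on Isl1. The median difference of the 10 genes was 2.49, or 2.91 relative to all genes. Their summed level of 151 FPKM in ApoE3 and 27.9 FPKM in ApoE4, with Trpv1 and Mrgprd at 0 in ApoE4, stands beside the Isl1 values of 3.15 and 1.002 FPKM. Isl2, the close relative of Isl1 that both neuron classes also use, was at 11.3 FPKM in ApoE3 and 8.24 FPKM in ApoE4, a difference of 0.41. Lhx3, which pairs with Isl1 in motor neurons, was at 3.65 and 4.48 FPKM, a difference of -0.24, or 0.19 relative to all genes, where its direction flips. The peptide genes Calca (-0.24) and Calcb (-1.33), kept in the motor neuron list but made by sensory ganglion neurons too, were higher in ApoE4. Relative to all genes Calca was at 0.18 and Calcb at -0.91. The part of sensory ganglion transcripts in the Isl1 difference was not tested.

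**Figure D3:**
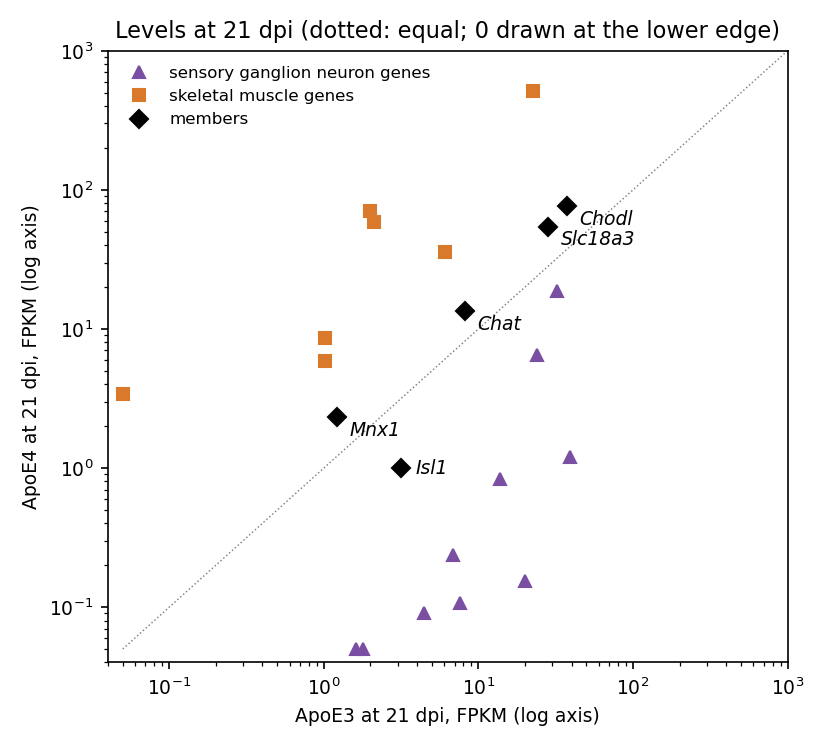
FPKM at 21 dpi in ApoE4 against ApoE3, both on log axes, for the 5 listed members (diamonds), 10 sensory ganglion genes (triangles) and 7 skeletal muscle genes (squares), with values of 0 drawn at the left or lower edge and the dotted line marking equal levels. Isl1 lies on the ApoE3 side of the line with the ganglion genes, and Chat, Slc18a3, Mnx1 and Chodl lie on the ApoE4 side, closer to the line than any of the muscle genes.

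Between 7 and 21 dpi the listed members had higher values in both genotypes, and Chat in ApoE3 was almost level. Of all genes listed at both times, 55.9% in ApoE3 and 78.3% in ApoE4 were higher at 21 dpi too. Whether both time points were normalized together is not given in the sources used here, so these values are set side by side with that limit. As log2 of the ratio of FPKM + 1 at 21 over 7 dpi, the ApoE3 values were 0.01 for Chat, 0.68 for Slc18a3, 0.84 for Chodl and 1.03 for Isl1. In ApoE4 they were 1.16 for Chat, 1.91 for Slc18a3, 2.03 for Chodl and 0.46 for Isl1. In plain FPKM, Chodl was 1.83 times as high at 21 as at 7 dpi in ApoE3 and 4.27 times in ApoE4, and Slc18a3 1.64 and 3.97 times.

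These values stand against a table that moved as a whole. The median of all genes was 0.09 in ApoE3 and 0.53 in ApoE4. In ApoE3, 3 of 4 members were past 1.3-fold towards 21 dpi and 0 towards 7 dpi, where 31.3% and 23.6% of the 10879 genes listed at both times were. In ApoE4, 4 of 4 and 0 were, against 59% and 10.9% of all genes. With these medians subtracted, Chat in ApoE3 changed sign, to -0.08, and so did Isl1 in ApoE4, to -0.07. Slc18a3 was then at 0.59 in ApoE3 and 1.39 in ApoE4, Chodl at 0.76 and 1.51, Chat in ApoE4 at 0.63 and Isl1 in ApoE3 at 0.94. The Isl1 change of sign was found with 1 added to FPKM. With 0.1 or 0.01 added instead, its ApoE4 difference before subtraction was 0.98 or 1.12, and no median was subtracted from these.

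Pan-neuronal genes also differed over time, and in ApoE3 not all in 1 direction: of 10 listed, 8 were higher at 21 dpi and 2, Map2 (-0.52) and Elavl4 (-0.37), were lower. Of all genes listed at both times, 55.9% were higher at 21 dpi in ApoE3. The pan-neuronal median was 1.18 in ApoE3, above every member, and 1.71 in ApoE4, between Chat and Slc18a3. Relative to this median, all 4 members were on the lower side in ApoE3, with Chat at -1.17, Slc18a3 at -0.50, Chodl at -0.34 and Isl1 at -0.15. In ApoE4, Chodl (0.32) and Slc18a3 (0.20) were above it and Chat (-0.55) and Isl1 (-1.26) were not. In ApoE3, and for Chat and Isl1 in ApoE4, the direction over time therefore depends on the genes taken as the base. Slc18a3 and Chodl in ApoE4 were on the side of 21 dpi on each base.

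**Figure D4:**
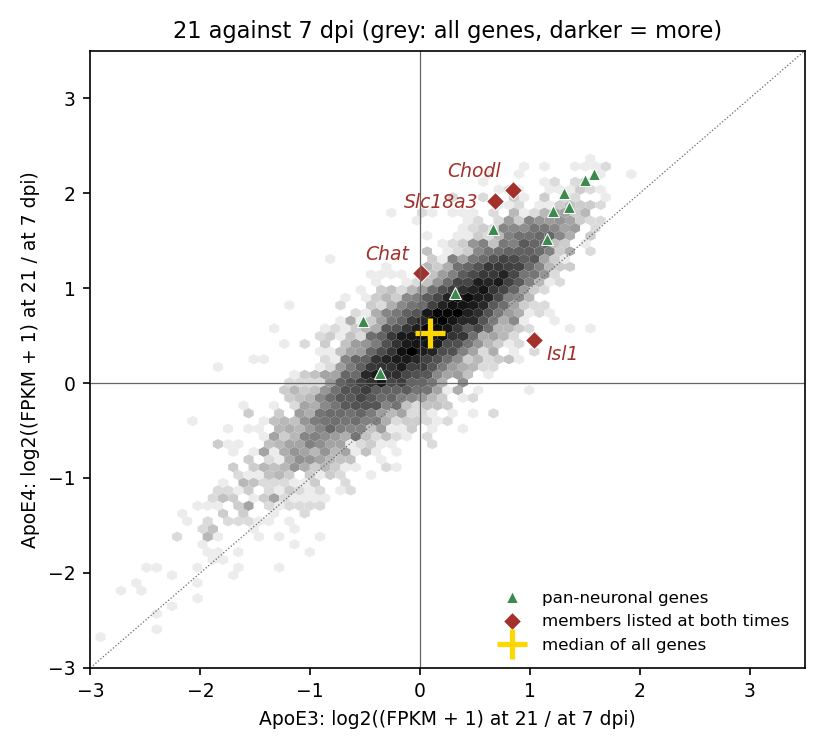
Difference between 21 and 7 dpi in ApoE4 against that in ApoE3, both as log2 of the ratio of FPKM + 1, with all genes listed at both times in grey, pan-neuronal genes as green triangles and the 4 members listed at both times as red diamonds; genes beyond the axes are not drawn. The cross is the median of all genes (0.09 in ApoE3 and 0.53 in ApoE4); Chat, Slc18a3 and Chodl lie above the body of genes, on the side of ApoE4, and Isl1 lies to its right.

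Chodl and Slc18a3 had nearly the same pattern over the 4 groups. Likeness was measured as the Euclidean distance between log2(FPKM + 1) values after each gene's own mean was subtracted, over 4 values per gene, as a description. Among 10863 other genes, Chodl ranked 24 from Slc18a3, at a distance of 0.19, and Slc18a3 ranked 10 from Chodl. Chat was not near either, at rank 2505 from Slc18a3 and 2854 from Chodl, and from Chat itself Slc18a3 ranked 6663 and Chodl 8163. From Isl1, the nearest other member was Chat, at rank 4879. The 3 genes nearest to Chat were Cldn34c2 (3.27, 2.12, 3.18 and 5.60 FPKM in ApoE3 and ApoE4 at 7 dpi and ApoE3 and ApoE4 at 21 dpi), Agbl3 and Lrrn3, at distances of 0.067, 0.081 and 0.084. Those nearest to Slc18a3 were Sh2d6 (26.1, 21.3, 42.3 and 81.2 FPKM in the same order), Prss36 and Igfbpl1, at 0.031, 0.083 and 0.098. All of these genes share the same 4 samples, and 4 values leave many genes with like patterns.

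Receptors for acetylcholine were at low to moderate levels. Of 16 nicotinic subunit genes, 4 were listed at each time. Chrna4, a subunit of the main neuronal receptor, was the most abundant, at 24.0 FPKM in ApoE3 and 19.6 FPKM in ApoE4 at 7 dpi and at 30.4 and 40.2 FPKM at 21 dpi. At 7 dpi none was past 1.3-fold, with a median of 0.24. At 21 dpi 2 of 4 were past it towards ApoE4, where 58.9% of all listed genes were, the larger being Chrnb2 (15.4 and 20.8 FPKM, -0.41), and the median was -0.35, or 0.07 relative to all genes, so that the direction of the list flips on that scale and 0 genes were past 1.3-fold. Chrna1, the muscle subunit, was not listed at either time.

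The listed muscarinic receptor genes were higher in ApoE4 at 21 dpi, as were 93.8% of all listed genes. Of 5 genes, 3 were listed at each time, and Chrm2, the inhibitory subtype, was the most abundant, at 21.8 FPKM in ApoE3 and 17.4 FPKM in ApoE4 at 7 dpi. At that time none was past 1.3-fold, and the median was 0.18. At 21 dpi all 3 listed genes were past it towards ApoE4, as were 58.9% of all listed genes, with a median of -0.74. With the shift of the table subtracted, 0 of the 3 were past it and the median was -0.31. Chrm2 was at 19.3 FPKM in ApoE3 and 32.8 FPKM in ApoE4, and Chrm3, an excitatory subtype, at 3.84 and 7.32 FPKM with a difference of -0.78.

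The genes that anchor or replace acetylcholinesterase, modulate receptors or supply choline lay close to the middle of the whole table. All 12 were listed at 7 dpi, with a median of 0.08. Of these 1, the receptor modulator gene Lypd6, was past 1.3-fold towards ApoE3 (10.5 and 7.36 FPKM, 0.47). Over all listed genes 3.78% were past it in that direction. Slc44a1, a choline transporter found in many cells, was the most abundant, at 733 and 698 FPKM. At 21 dpi 8 were listed and 6 were past 1.3-fold towards ApoE4, where 58.9% of all listed genes were, with a median of -0.46. With the shift subtracted the median was -0.04. On that scale 2, Bche (-0.52) and Lypd6 (-0.69), were past 1.3-fold towards ApoE4, where 8.06% of all listed genes were. Slc44a1 was again the most abundant, at 579 and 851 FPKM. Lypd6 had the largest difference, at 9.69 FPKM in ApoE3 and 22.1 FPKM in ApoE4 (-1.11). It thus went from higher in ApoE3 to higher in ApoE4, as did Chat and 49% of all genes listed at both times. Bche, the second enzyme that splits acetylcholine, was at 3.48 and 2.67 FPKM at 7 dpi and at 2.76 and 6.23 FPKM at 21 dpi. The anchors of Ache had values at 21 dpi although Ache did not: Prima1, the membrane anchor in neurons, was at 108 FPKM in ApoE3 and 142 FPKM in ApoE4, and Colq, the collagen tail used at the muscle endplate, was at 11.6 and 12.1 FPKM.

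Other genes of motor neuron identity and subtype were split. Of 25, 22 were listed at 7 dpi, 17 of them higher in ApoE3, with a median of 0.18. Over all listed genes 50.4% were higher in ApoE3. Past 1.3-fold were 2 towards ApoE3, the larger being the peptide gene Calca (377 and 269 FPKM, 0.48), and 1 towards ApoE4, the fibrillin gene Fbn2 (5.32 and 7.63 FPKM, -0.45), where 3.78% and 4.76% of all listed genes were. Foxp1, a factor of limb motor columns that many other cells express, was the most abundant, at 461 and 483 FPKM. Prph, an intermediate filament of motor and sensory neurons, was at 106 and 94.1 FPKM and was not listed at 21 dpi.

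At 21 dpi 18 of the 25 were listed, 15 of them higher in ApoE4, with a median of -0.54, or -0.12 relative to all genes. Over all listed genes 93.8% were higher in ApoE4. Past 1.3-fold were 10 of the 18 towards ApoE4 and 2 towards ApoE3, near the shares of all listed genes (58.9% and 2.01%) in the first case. Relative to all genes, 4 were past it towards ApoE4 and 3 towards ApoE3, against 8.06% and 7.46% of all listed genes. The largest difference towards ApoE4 was that of Calcb, a second calcitonin gene-related peptide gene, at 23.5 FPKM in ApoE3 and 60.6 FPKM in ApoE4 (-1.33). The neurofilament gene Nefm, the most abundant of the list, was at 609 and 1149 FPKM (-0.92). The 2 towards ApoE3 were Isl2 and Aldh1a2, which makes retinoic acid in some motor columns and in meninges, at 2.14 and 1.14 FPKM (0.55).

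The remaining lists are given for comparison. Of 7 genes of other transmitter types, 5 were listed at 21 dpi, 3 of them past 1.3-fold towards ApoE4, where 58.9% of all listed genes were, with a median of -0.44, or -0.01 relative to all genes, where 0 were. Slc6a5, the glycine transporter of inhibitory neurons, was at 226 FPKM in ApoE3 and 368 FPKM in ApoE4 (-0.70), Gad1, the most abundant, at 323 and 438 FPKM, and the vesicular glutamate transporter gene Slc17a7 at 3.06 and 0.519 FPKM (1.42). Erythroid genes, 4 of 6 listed at 21 dpi, were past 1.3-fold in no case, with a summed level of 1063 and 1335 FPKM, Hba-a1 the most abundant (458 and 590 FPKM) and none at 0. Hox genes of groups 10 to 13, which mark caudal segments, had 7 of 12 listed at 21 dpi, 3 past 1.3-fold towards ApoE3 and 2 towards ApoE4, or 4 and 0 relative to all genes. The shares of all listed genes were 2.01% and 58.9%, or 7.46% and 8.06% with the median subtracted. Hoxc12 (2.58 and 1.01 FPKM, 0.83) and Hoxd10 (20.8 and 28.7 FPKM, -0.45) had the largest differences in each direction among those with a mean of at least 1 FPKM. Hoxc10 was the most abundant, at 27.7 FPKM in ApoE3 and 37.6 FPKM in ApoE4, Hoxb13 (1.92 FPKM in ApoE3) and Hoxc13 (1.17 FPKM in ApoE3) were listed at 0 in ApoE4, and the list summed to 59.4 and 72.7 FPKM. At 7 dpi 2 were listed, Hoxc10 at 7.19 and 7.27 FPKM and Hoxa10 at 8.07 and 5.68 FPKM (0.44). Their part in the members' differences was not tested.

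**Figure D5:**
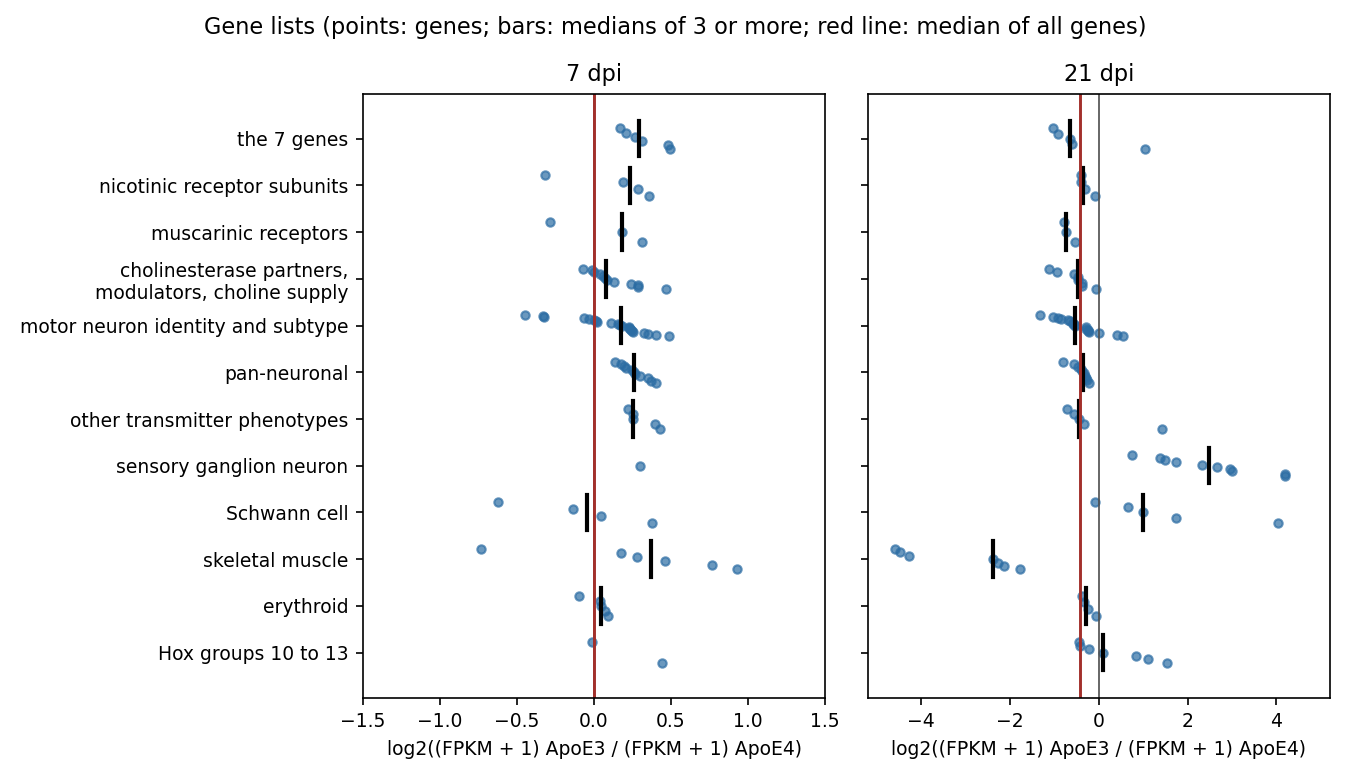
Difference between genotypes, as log2 of the ratio of FPKM + 1, ApoE3 over ApoE4, for the genes of 12 lists at 7 dpi (left) and 21 dpi (right), on axes of different width; points are genes, black bars medians of lists with at least 3 listed genes, and the red line the all-gene median. At 7 dpi the members (median 0.29) lie with the pan-neuronal genes (0.26), and at 21 dpi the sensory ganglion genes (2.49) and the skeletal muscle genes (-2.37) lie far to either side.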

How the data were processed

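Lesion-site RNA of the 4 groups was prepared with a TruSeq kit and sequenced, and the authors reduced all libraries to 1 number of raw reads before alignment. By the study's methods 1 replicate, whose group is not given in the sources used here, aligned at a lower rate than the others, so mapped depth was not equal. The submitters' processing notes name STAR 2.5.4b, Bowtie2, SAMtools and Cuffdiff 1.3.0. The genome build and annotation are not given in the sources used here. The authors combined the mice of a group and deposited FPKM plus 1, 1 value per gene and group, and values of single mice were not used here. The same table holds the authors' p-values, q-values and fold changes, and a second table their differentially expressed genes; neither was used. The first value column was read as ApoE3, since the rows name the comparison as ApoE3 versus ApoE4 and the study itself reads the ratio so, although the sample columns are numbered in the other order.

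A value of 1 was subtracted to give FPKM. Symbols on more than 1 row (2 at each time point) were averaged, and 14556 of 14718 symbols matched RefSeq (GRCm38.p6). Differences are log2((FPKM + 1)/(FPKM + 1)), and a gene is called past the threshold at a ratio of at least 1.3, the fold used in the study. No test was run, because 1 value per group gives no spread between mice, and the depth per gene is not known. Medians of all genes were taken over genes with a mean of at least 1 FPKM. One gene of the Schwann cell list is not reported here. The members and all gene lists were chosen with earlier results of these data known. All 7 members are given. From each other list, the most abundant gene and those with the largest difference in each direction past 1.3-fold with a mean of at least 1 FPKM were named, up to 4 a list and time point, together with Isl2, Lhx3, Bche, Colq, Prima1, Prph and Chrna1 and the 3 genes nearest in pattern to Chat and Slc18a3. Other genes named (Avil, Cdh19, Elavl4, and Trpv1, Mrgprd, Myh4, Hoxb13 and Hoxc13, listed at 0 in a group) were chosen after their values were seen. Alternatives were pseudocounts of 0.1 and 0.01, medians of all or of pan-neuronal genes subtracted, a mean of at least 1 FPKM, folds of 1.5 and 2, and sets without Slc18a3 or without Isl1 and Ache. The calculations were tested on simulated data and used Python 3.11.15, numpy 2.4.6 and pandas 2.3.3; plots were drawn with matplotlib 3.10.9.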

Additional observations from a re-analysis of the deposited data

Results flagged for a closer look

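For 3 of the 4 members listed at both times, the difference between genotypes had opposite signs at 7 and 21 dpi. The same change, from higher in ApoE3 to higher in ApoE4, was found in 49% of the 10879 genes listed at both times and in 10 of 10 pan-neuronal genes. On the log2 scale of FPKM + 1, ApoE3 over ApoE4, Chat was at 0.49 at 7 dpi and -0.65 at 21 dpi, Slc18a3 at 0.31 and -0.92, and Chodl at 0.17 and -1.02. Of these 3, Chat alone was past 1.3-fold at both times, a call that is lost when either median is subtracted. Of all genes listed at both times, 267 (2.45%) were past it in this way, as was 1 of 10 pan-neuronal genes. With the median of all genes subtracted at 21 dpi, Chat was at -0.23, Slc18a3 at -0.49 and Chodl at -0.60, so the signs stayed opposite but Chat was no longer past 1.3-fold. On that scale 26.3% of all genes and 3 of 10 pan-neuronal genes changed sign in this way. With the pan-neuronal median subtracted at both times, Chat was at 0.23 and -0.30, past 1.3-fold at neither, and Chodl was on the side of ApoE4 at 7 dpi as well (-0.09). The difference between the time points was not tested, since each group has 1 value.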

How the results depend on the processing

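Counts of members were recomputed under each alternative, medians under all but the other folds, and the members' own differences under both pseudocounts and both subtracted medians. The reading by column number was applied only to the comparisons of genotypes. Of 106 recomputed medians and counts, 82 kept their direction and side of the threshold, or stayed within 1.5 times for counts. Of 76 recomputed member differences, 58 kept both. Part of the 82 could not have changed. An empty count stays empty at a higher fold, and leaving out Slc18a3 cannot alter a count it was not in. A median below the threshold counted as kept however much it shrank, if its sign stayed. The readings by column number, also among the 106, flip by construction. The tally therefore does not measure how robust the results are.

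At 7 dpi, 2 members were past 1.3-fold towards ApoE3. This became 0 with the pan-neuronal median subtracted (the median of members went from 0.29 to 0.028), 1 with a mean of at least 1 FPKM, 0 at folds of 1.5 and of 2, and 1 without Isl1 and Ache. At 21 dpi the median of -0.65 became -0.23 with the median of all genes subtracted and -0.30 with the pan-neuronal median subtracted, and the count of 4 towards ApoE4 became 2 under both. It became 1 at a fold of 2, and the count of 1 towards ApoE3 became 0 without Isl1 and Ache, since Isl1 was that gene. With the median of all genes subtracted at 21 dpi, 8.06% of all listed genes were past 1.3-fold towards ApoE4. Shares were not computed at the other folds, with a mean of at least 1 FPKM or relative to the pan-neuronal median. Counts under those settings cannot be set against the whole table. Low genes moved most with the pseudocount. At 0.1 and 0.01, Isl1 was at 1.02 and 1.15 at 7 dpi and at 1.56 and 1.64 at 21 dpi. Mnx1 was at -0.89 and -0.94 at 21 dpi. Medians were subtracted only at a pseudocount of 1.

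For 21 against 7 dpi, subtracting the pan-neuronal median turned the ApoE3 median from 0.76 to -0.42 and the ApoE4 median from 1.54 to -0.18. The counts towards 21 dpi became 0 and those towards 7 dpi 2 in both genotypes. The share of all genes listed at both times was not computed on this base, so these counts cannot be set against the whole table. In ApoE3, Chat (-1.17), Slc18a3 (-0.50), Isl1 (-0.15) and Chodl (-0.34) changed sign, and in ApoE4 Chat (-0.55) and Isl1 (-1.26) did. These follow from the larger pan-neuronal differences over time. Isl1 in ApoE4 also changed sign with the median of all genes subtracted (-0.068), at a pseudocount of 1. Without subtraction its difference went from 0.46 to 0.98 and 1.12 at pseudocounts of 0.1 and 0.01. At a fold of 2, the ApoE3 count of 3 became 1, and the share of all genes at that fold was not computed either.

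A further alternative, chosen after seeing the data, took the genotypes from the column numbers. It goes against the way the study itself reads the ratio. By construction it turns the 7 dpi median to -0.29, with 0 members towards ApoE3 and 2 towards ApoE4, and the 21 dpi median to 0.65, with 4 and 1. No paired analysis was possible because each group has 1 value. The depth behind each gene is not known, so no counting error can be given for low genes such as Isl1 and Mnx1.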
